A study of Mus musculus with 9 samples.

Results

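Hba-a1, Hba-a2, Hbb-b1, Hbb-b2 and Alas2 are red cell genes whose transcripts in a whole organ are commonly read as a measure of the blood it holds. They were followed in 9 RNA-seq libraries of mouse uterus. The 5 genes were chosen by name, under the symbols of the mouse annotation, and are 5 of the 35934 annotated genes in the files. A gene's level is the summed FPKM of its annotated transcripts, where FPKM is fragments scaled to transcript length and to the library's mapped fragments.

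The study asked how the uterus responds to medium in which human embryos had been cultured. In the arrested group (3 libraries) the uterine horns received pooled medium from 18 embryos whose development stopped. In the competent group (3 libraries) they received pooled medium from 9 developmentally competent embryos. In the control group (3 libraries) they received embryo culture medium that had held no embryo. All groups were immature C57BL/6 females given 50 µl per injection after hormone priming with progesterone (1 mg, a single dose) and β-estradiol (10 mg/kg/day) over 3 days. The labels give an age of 25 days, and the design text gives 25 days at flushing and 21 days for the profiles. Each conditioned medium was a pool, and the labels leave unsaid whether replicate libraries are different animals, so p-values here measure the spread between libraries, which may be technical. The uterus was frozen whole, with no perfusion described, so vessels and their blood belonged to the sample.

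Adult haemoglobin is built from alpha chains, encoded by Hba-a1 and Hba-a2, and beta chains, encoded by Hbb-b1 and Hbb-b2, each chain carrying a haem group that binds oxygen. Alas2 encodes the erythroid form of aminolevulinate synthase, the enzyme that starts haem synthesis in red cell precursors, whereas Alas1 encodes the form used by other cells. Circulating red cells have no nucleus and make no new transcripts, and young ones (reticulocytes) still hold globin and Alas2 mRNA made in the marrow. In bulk tissue, fewer cells of a type and less RNA per cell cannot be told apart.

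On build NCBIM37 (mm9) the alpha pair lies on the plus strand of chromosome 11, with Hba-a1 (ENSMUSG00000069919) at chr11:32183511-32184465 and Hba-a2 (ENSMUSG00000069917) at chr11:32196489-32197301. The beta pair lies on the minus strand of chromosome 7, with Hbb-b1 (ENSMUSG00000052305) at chr7:110975048-110976610 and Hbb-b2 (ENSMUSG00000073940) at chr7:110961038-110962510. Alas2 (ENSMUSG00000025270) is on the plus strand of the X chromosome at chrX:146981918-147005181.

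The copies within each pair are nearly the same sequence, which limits how well reads can be divided between them. The 429-base coding sequences of Hba-a1 and Hba-a2 differed at 1 base, C381T, and the 444-base coding sequences of Hbb-b1 and Hbb-b2 at 1 base, C417T. Positions count from 1 at the first base of the start codon, and the base of Hba-a1 or Hbb-b1 comes first. The 41 bases around each difference are printed below, 5′ to 3′ on the coding strand with the differing base in capitals. They lie at chr11:32184323-32184363 in Hba-a1, chr11:32197140-32197180 in Hba-a2, chr7:110975186-110975226 in Hbb-b1 and chr7:110961177-110961217 in Hbb-b2.
Hba-a1: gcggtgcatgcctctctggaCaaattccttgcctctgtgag
Hba-a2: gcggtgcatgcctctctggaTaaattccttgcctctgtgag
Hbb-b1: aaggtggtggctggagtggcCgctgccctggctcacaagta
Hbb-b2: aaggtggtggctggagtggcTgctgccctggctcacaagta
Over whole transcripts, 439 windows of 50 bases were shared by the 2 alpha copies, which is 67.5% of the windows of Hba-a1 and 86.9% of those of Hba-a2. The beta copies shared 381 windows, 52.3% of those of Hbb-b1 and 58.3% of those of Hbb-b2. A read within a shared stretch cannot be given to 1 copy by its sequence, so levels of single copies are uncertain and sums over each pair are given beside them.

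The stretch in front of each gene is shown as a description, and a link between it and the levels was not tested. RefSeq (GRCm38.p6) lists promoters of Hba-a1, Hba-a2 and Alas2 under the same symbols, so 3 of 5 matched by name. The other 2 were matched by position, Hbb-b1 to RefSeq's Hbb-bs and Hbb-b2 to Hbb-bt, and every promoter printed was found letter for letter in NCBIM37. Motifs known from red cell promoters were searched on both strands in the 150 bases before the RefSeq start. They were CACCC, the box bound by Krüppel-like factors, then CCAAT, the box bound by NF-Y, then ATATAA as a form of the TATA box, and GATAA, the core bound by GATA factors. They are in capitals below, also where they read on the opposite strand as GGGTG for the first, ATTGG for the second or TTATC for the last. The first set runs from 95 to 66 bases before the start, on the coding strand, at chr11:32183577-32183606 for Hba-a1, chr7:110976508-110976537 for Hbb-b1, chr7:110962503-110962532 for Hbb-b2 and chrX:146981865-146981894 for Alas2.
Hba-a1: aaaccagCCAATgagaactgctccaagggc
Hbb-b1: agccaCACCCtggtaagggCCAATctgctc
Hbb-b2: gggtaaCACCCtggcATTGGCCAATctgct
Alas2: ctttgctttTTATCtttagcagaggcctga
The second set runs from 45 to 16 bases before the start, at chr11:32183627-32183656 for Hba-a1, chr7:110976458-110976487 for Hbb-b1, chr7:110962453-110962482 for Hbb-b2 and chrX:146981915-146981944 for Alas2.
Hba-a1: acacgcccttggagggcATATAAgtgctac
Hbb-b1: gagccagggcagagcATATAAggtgaggta
Hbb-b2: ggagccagcATTGGgtATATAAagctgagc
Alas2: gaaggGGGTGGGGTGGGGTGggcggggctg
Each of the 4 globin promoters held CACCC as well as CCAAT and also ATATAA within 150 bases, and Alas2 held 3 copies of CACCC and 1 of GATAA, all on the opposite strand. Of 32544 distinct mouse promoters in the table, 37.5% held CACCC in the same window, 24.4% held CCAAT, 5.36% held ATATAA and 13.3% held GATAA, and 0.418% held the first 3 together. In Hba-a1 the CACCC lies 60 to 56 bases before the start, between the windows shown. The promoters of Hba-a1 and Hba-a2 share an identical run of 297 bases, so only Hba-a1 is printed. GENCODE draws the first exons of Hba-a1 and Hbb-b1 farther upstream than RefSeq does, so these windows lie inside the bounds of both genes in the annotation used for the levels. The second window of Hbb-b2 also lies inside its gene's bounds, and the first window of Hbb-b2 and the second of Alas2 overlap theirs in part. A match of letters is a description and not a measured binding site.

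The haemoglobin genes were among the more abundant transcripts of the uterus. Between libraries of the same group their sum varied 2.31-fold in arrested, 5.31-fold in competent and 1.603-fold in control libraries. The sum of the 4 genes was 3609, 4831 and 2087 FPKM in arrested libraries 1, 2 and 3, against 3955, 2468 and 744 FPKM in competent libraries 1, 2 and 3, and 934, 987 and 1497 FPKM in control libraries 1, 2 and 3. The group means were 3509 ± 1375 FPKM in arrested, 2389 ± 1607 FPKM in competent and 1139 ± 311 FPKM in control libraries (SD, n = 3 each). All 3 arrested libraries lay above all 3 control libraries. The competent group held the second highest and the lowest library of the series, and so spanned nearly the whole range. Over the 9 libraries the sum varied 6.49-fold.

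**Figure D1:**
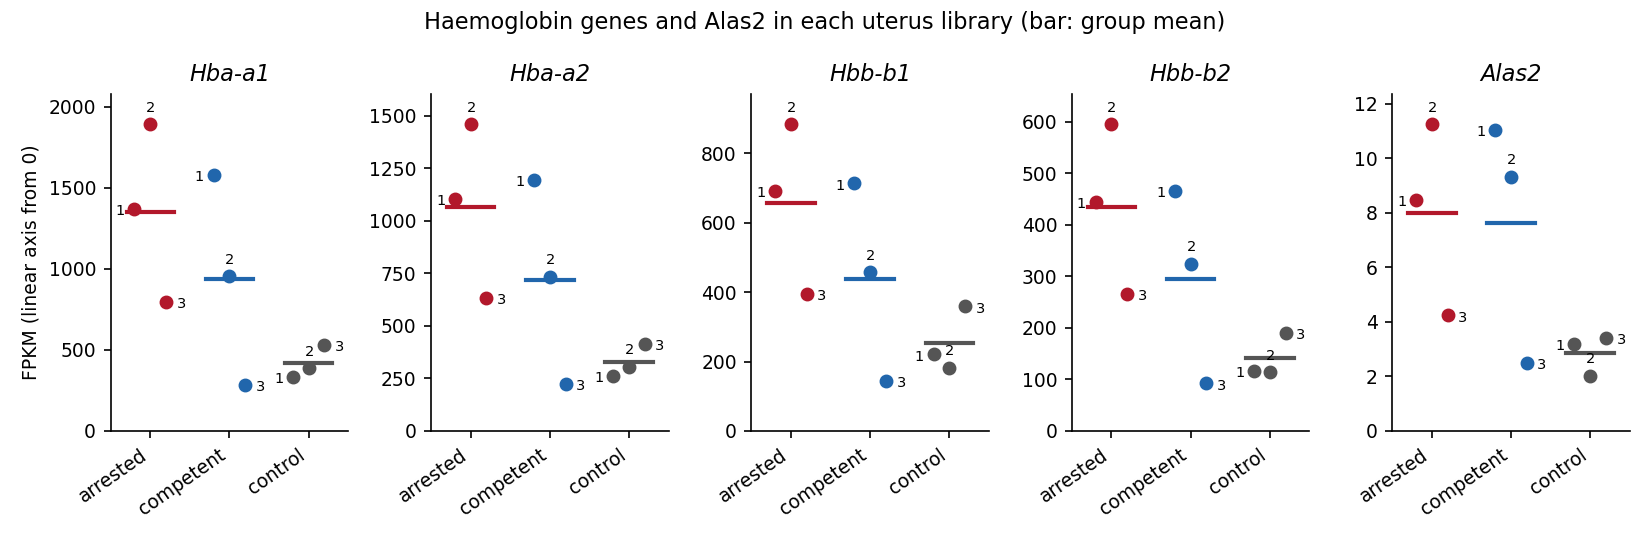
FPKM of each gene (linear axis from 0, a separate scale for each gene) in the 3 arrested, 3 competent and 3 control libraries; points are libraries with their replicate number and bars are group means. In all 5 genes the arrested points lie above the control points, and competent library 3 lies within or below the control range while competent libraries 1 and 2 lie above them.

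By summed annotated FPKM, Hba-a1 stood highest of the 5 genes in every library, whereas by read density over exons Hba-a2 stood above Hba-a1 in every library. Read density is FPKM times length, summed over the annotated and assembled transcripts of a gene and divided by the length of its exons, a measure chosen after the data were seen. By summed annotated FPKM, Hba-a1 had 1368, 1892 and 795 FPKM in arrested libraries, against 1580.3, 954 and 282 FPKM in competent and 333, 386 and 532 FPKM in control libraries. Ranked by FPKM among the 13333 genes that averaged 1 FPKM or more, Hba-a1 stood between rank 74 (arrested library 2) and rank 470 (competent library 3). The second alpha gene, Hba-a2, had 1104, 1459.7 and 633 FPKM in arrested libraries, against 1196, 733 and 225 FPKM in competent and 263, 305 and 415 FPKM in control libraries. Both genes put the 9 libraries in the same order, with arrested library 2 first and competent library 3 last.

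The alpha sum was 2472, 3352 and 1427 FPKM in arrested libraries, against 2776, 1686 and 507 FPKM in competent and 596, 691 and 947 FPKM in control libraries. Competent library 3 was therefore below every control library, while the other competent libraries were above every control library. The ratio of group means was 3.25 for arrested over control, 2.22 for competent over control and 1.46 for arrested over competent.

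Hbb-b1 had 692, 884 and 395 FPKM in arrested libraries, against 713, 458 and 145 FPKM in competent and 221, 182 and 359 FPKM in control libraries. The lowest arrested library (395 FPKM) stood close above the highest control library (359 FPKM). Hbb-b2 had 445, 595 and 265 FPKM in arrested libraries, against 466, 324 and 92.3 FPKM in competent and 116, 114 and 191 FPKM in control libraries. For Hbb-b2, too, no arrested library fell within the control range. The beta sum was 1137, 1479 and 659.7 FPKM in arrested libraries, against 1179, 782 and 237 FPKM in competent and 337, 296 and 549.5 FPKM in control libraries, and its group means stood 2.77-fold higher in arrested than in control libraries and 1.86-fold higher in competent than in control libraries.

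Alas2 was a far rarer transcript than the globins, at rank 6543 to 11141 of the 13333 genes. It had 8.47, 11.3 and 4.24 FPKM in arrested libraries, against 11.04, 9.32 and 2.49 FPKM in competent and 3.19, 2.03 and 3.401 FPKM in control libraries. Arrested libraries again lay above all control libraries. Competent library 3 lay within the control range for Alas2, whereas for each globin gene it lay below every control library. The group means were 7.99 ± 3.53 FPKM in arrested, 7.62 ± 4.52 FPKM in competent and 2.87 ± 0.742 FPKM in control libraries (SD, n = 3 each). The arrested mean stood 1.05-fold above the competent mean for Alas2, against 1.47-fold for the haemoglobin sum, and this contrast between the genes was not tested. The number of reads behind Alas2 is unknown. The authors' interval for its main transcript (ENSMUST00000066337) ran from 6.28 to 8.73 FPKM around 7.51 FPKM in arrested library 2, and such intervals cover the counting and assignment of reads only. That transcript was listed at 0 in control libraries 1 and 2, where ENSMUST00000112715 held all of the gene's level. ENSMUST00000112715 was in turn listed at 0 in arrested library 3 and competent libraries 2 and 3.

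None of the 5 genes passed the threshold in any comparison when limma was fitted to log2(FPKM + 1) over all 13333 genes and p-values were adjusted by the Benjamini-Hochberg method. Against control, arrested libraries were 1.63 ± 0.60 (SE) higher for Hba-a1 on the log2(FPKM + 1) scale, with a 95% interval of 0.25 to 3.02 and an adjusted p of 0.904. The corresponding differences were 1.64 for Hba-a2, 1.35 for Hbb-b1, 1.59 for Hbb-b2 and 1.15 for Alas2, each also with a limma adjusted p of 0.904. Without adjustment, limma gave p-values of 0.0260, 0.0223, 0.0483, 0.0255 and 0.0531 for Hba-a1, Hba-a2, Hbb-b1, Hbb-b2 and Alas2. So 4 of 5 genes had an unadjusted p under 0.05 with higher levels in arrested libraries, where 2.08% of all tested genes did. That count was 1 of 5 with failed estimates and control library 1 left out together. It was 0 without control library 1, control library 2, arrested library 1 or arrested library 2. The share of all genes that passed the adjusted threshold in this comparison was 0.0525%, or 7 genes.

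In arrested against control libraries the groups did not overlap for any of the 5 genes, nor for either sum, with arrested libraries higher. Among all tested genes, 3.49% showed that pattern. An exact permutation test over the libraries (two-sided) gave p = 0.1 for each gene and each sum, which is the smallest that 3 against 3 libraries allow. Since the 5 genes follow each other closely, their common direction counts as 1 observation and not as 5.

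Competent libraries differed from control by 0.88 ± 0.60 (SE) for Hba-a1 on the log2(FPKM + 1) scale, with a 95% interval of -0.51 to 2.26 and a limma adjusted p of 0.954. The differences of the other 4 genes lay between 0.57 (Hbb-b1) and 0.99 (Alas2), with adjusted p between 0.953 and 0.955. By the adjusted threshold 0.045% of all genes were called here, and none of the 5 was. None of them had an unadjusted limma p under 0.05 either, where 5.18% of all genes did, and exact permutation p-values were 0.3 to 0.5. Without competent library 3 the difference of Hba-a1 became 1.58, and without competent library 1 it became 0.34, and neither passed the adjusted threshold.

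Arrested libraries differed from competent by 0.76 ± 0.60 (SE) for Hba-a1 on the same scale, with a 95% interval of -0.63 to 2.14 and a limma adjusted p of 0.698. The other globins gave 0.77 to 0.79. With the assembled transcript of competent library 2 included, described with the transcripts below, Hbb-b1 gave 0.34 and the beta sum 0.48, and when each gene was read from its single most abundant transcript Hbb-b1 gave 3.73. Alas2 gave 0.16 ± 0.51 (SE) with a 95% interval of -1.005 to 1.33. The groups overlapped for every gene, and exact permutation p-values ran from 0.5 to 0.8. By the adjusted threshold 0.135% of all genes were called in this comparison, and 10.9% had an unadjusted limma p under 0.05, as none of the 5 did. These intervals reach from a lower level to a more than 2-fold higher level in arrested libraries, so the data do not show that the 2 conditioned media left the same amount of these transcripts. Without competent library 3 the difference of Hba-a1 was 0.05. That of Alas2 became -0.40 without competent library 3 and -0.10 without arrested library 2. Across the 3 groups at once, limma's F test gave unadjusted p-values of 0.0628 to 0.125 for the 5 genes and called none of them, with 0.0975% of all genes called and 7.67% at an unadjusted p under 0.05.

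**Figure D2:**
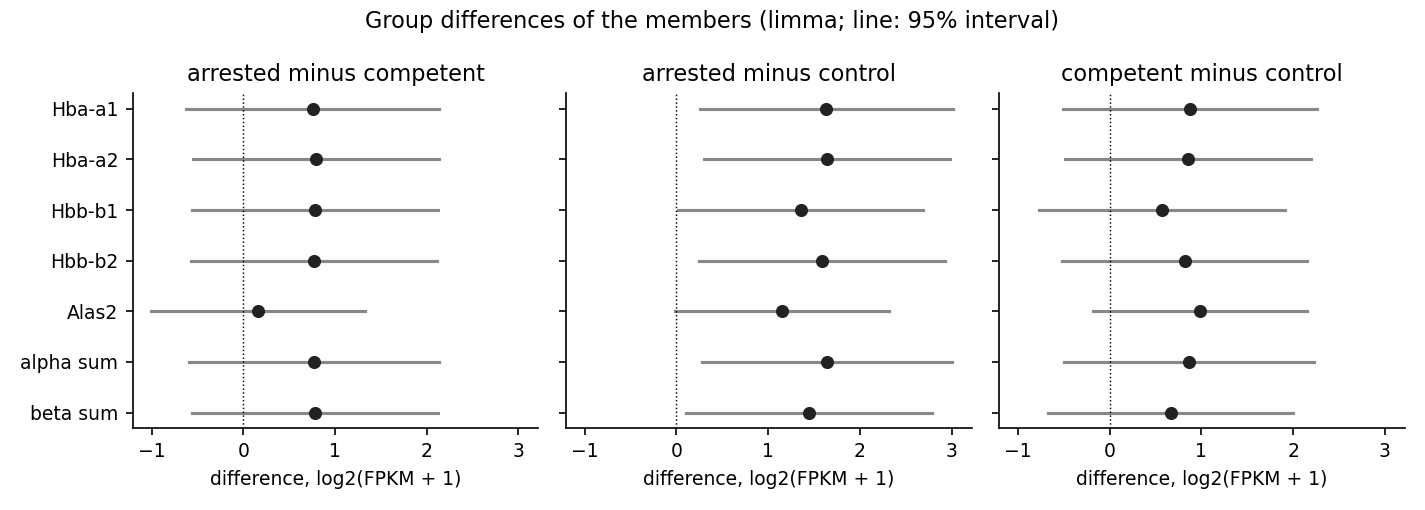
Differences between group means on the log2(FPKM + 1) scale for the 5 genes, the alpha sum and the beta sum, from limma; points are the differences and lines their 95% intervals, and values right of 0 are higher in the first-named group. The intervals of the globins lie above 0 only for arrested minus control, where that of Alas2 starts at -0.02, and no difference passed adjustment over all genes.

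Alas2, which shares no reads with the globins, followed them from library to library. Over the 9 libraries log2(FPKM + 1) of Alas2 and of the haemoglobin sum had Pearson's r = 0.941 (exact permutation p = 0.000581) and Spearman's rho = 0.933 (exact permutation p = 0.00075). Without the 2 libraries farthest from the median of the haemoglobin sum, arrested library 2 and competent library 3, r was 0.924. After subtracting each group's mean, r was 0.953, so libraries of the same group also kept to this relation. Among 13329 tested genes other than the globins, Alas2 had the second highest r with the haemoglobin sum, after a predicted gene known only by an identifier. By read density over exons r was 0.947 and the highest of 13727 genes. When each gene was read from its single most abundant transcript, r was 0.738 (exact permutation p = 0.0252).

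**Figure D3:**
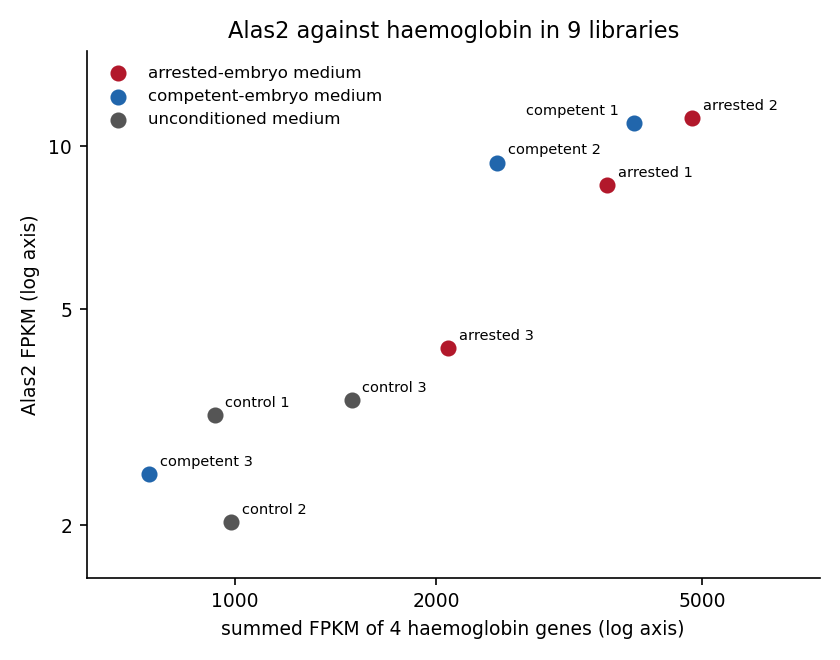
Alas2 FPKM against the summed FPKM of the 4 haemoglobin genes, both on log axes, with 1 point for each of the 9 libraries, coloured by group. Arrested libraries 1 and 2 and competent libraries 1 and 2 lie at the upper right, and the 3 control libraries and competent library 3 at the lower left, with arrested library 3 between them.

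The haemoglobin sum exceeded Alas2 by 426, 429 and 492 times in arrested libraries, by 358, 265 and 299 times in competent libraries and by 292, 487 and 440.1 times in control libraries. The 3 competent libraries lay below the 3 arrested ones in this ratio, while the control libraries, from 292 to 487 times, overlapped both groups. No test of this ratio was made.

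Alpha and beta globin varied together between libraries as well, with r = 0.989 between log2(FPKM + 1) of the 2 sums (exact permutation p = 1.38e-05) and rho = 0.983 (exact permutation p = 4.96e-05). The r was 0.984 without competent library 3 and control library 1, the farthest from the median. Between copies r was 0.9997 for the alpha pair and 0.991 for the beta pair, with rho = 1 in both and the smallest exact p of 5.51e-06 that rho allows in 9 libraries. Copies that share most of their sequence cannot give independent values. These 4 relations were the whole family, and the Benjamini-Hochberg adjusted p over it was at most 0.000581 for r and 0.00075 for rho.

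Within a library, the alpha sum exceeded the beta sum by 2.17, 2.27 and 2.16 times in arrested libraries, against 2.35, 2.16 and 2.14 times in competent and 1.77, 2.34 and 1.72 times in control libraries. Control libraries 1 and 3 were thus the only ones under 2.1. Hba-a1 exceeded Hba-a2 by 1.24 to 1.32 times in all 9 libraries. By read density over exons that ratio was 0.882 to 0.94, so which copy was higher depended on the measure. Hbb-b1 exceeded Hbb-b2 by 1.41 to 1.59 times in 7 libraries, and by 1.90 and 1.88 times in control libraries 1 and 3.

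The transcripts that made up Hbb-b1 also differed between libraries. A short transcript of 407 bases (ENSMUST00000153218) had 458 FPKM in competent library 2, 69.9 FPKM in control library 1 and 103 FPKM in control library 3, and was listed at 0 in the other 6 libraries. The full transcript of 778 bases (ENSMUST00000023934) was listed at 0 in competent library 2 and had 145 to 884 FPKM in the others. In competent library 2 an assembled transcript that carries no annotated name covered chr7:110975044-110976427 on the minus strand with 3 exons and 690 FPKM, and was not part of the sums above. With it, Hbb-b1 in that library was 1148 FPKM in place of 458 FPKM. By read density over exons, Hbb-b1 exceeded Hbb-b2 by 1.34 to 1.46 times in 8 libraries and by 1.93 times in competent library 2, so control libraries 1 and 3 no longer stood apart on this measure. Their alpha over beta ratios, 1.46 and 1.41, remained the lowest after competent library 2.

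**Figure D4:**
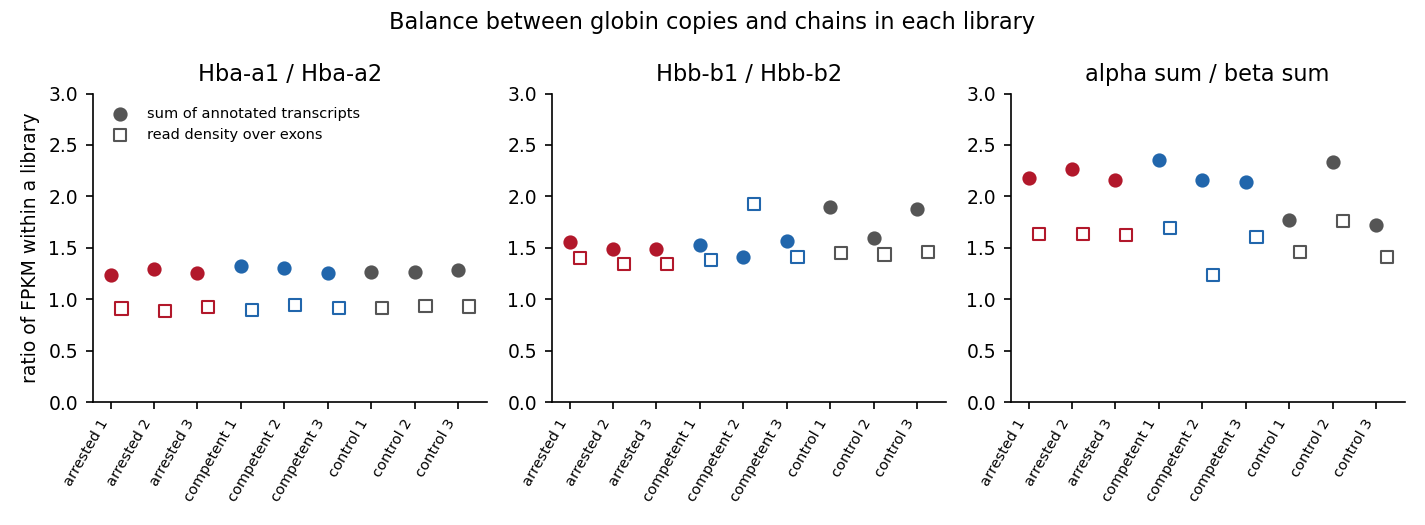
Ratios of FPKM within each of the 9 libraries for Hba-a1 over Hba-a2, Hbb-b1 over Hbb-b2 and the alpha sum over the beta sum (linear axes from 0); filled circles use the sum of annotated transcripts and open squares the read density over exons. The alpha copies keep nearly the same ratio in all libraries, above 1 by annotated transcripts and below 1 by read density, and Hbb-b1 over Hbb-b2 departs in competent library 2 and in control libraries 1 and 3, depending on the measure.

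Transcripts of nucleated red cell precursors were close to absent beside this globin. Of 28 listed erythroid lineage genes 23 were found in the annotation and 21 of these averaged under 1 FPKM. The embryonic globins Hbb-bh1, Hbb-bh2 and Hba-x were listed at 0 in all 9 libraries. Gata1, a master regulator of red cell development, was listed at 0 in all but arrested library 1 (0.281 FPKM), and Klf1, which switches on adult beta globin, had 0.22 to 0.96 FPKM. Slc4a1, the red cell anion exchanger, reached 1.13 FPKM. The red cell label therefore rests on the 5 genes, with the markers of erythroid precursors at or near 0. The 23 genes together summed to 8.58 to 15.6 FPKM in arrested, 6.75 to 10.1 FPKM in competent and 3.06 to 13.7 FPKM in control libraries.

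Only Slc25a37 and Kel of that list reached a mean of 1 FPKM. Slc25a37, mitoferrin 1, which carries iron into mitochondria for haem synthesis, had 5.77, 5.13 and 3.31 FPKM in arrested libraries, against 5.74, 2.96 and 2.71 FPKM in competent and 2.66, 0 and 3.86 FPKM in control libraries. Its arrested and control ranges overlapped. Kel, a red cell surface peptidase, had 1.17 to 3.01 FPKM in arrested, 0.06 to 1.601 FPKM in competent and 0 to 4.11 FPKM in control libraries. Neither passed the limma threshold in any comparison.

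Haem synthesis genes other than Alas2 did not order the libraries as the globins did. All 11 genes found of this pathway were tested, and in arrested against control libraries 3 were higher and 8 lower with a median difference of -0.09 on the log2(FPKM + 1) scale, where the median over all genes tested was -0.02. None passed the limma threshold in any of the 3 comparisons. Alas1, the counterpart of Alas2 in other cells, had 51.3, 53.1 and 49.9 FPKM in arrested libraries, against 56.5, 56.4 and 51.1 FPKM in competent and 67.8, 64.0 and 61.8 FPKM in control libraries. Its log2 difference for arrested minus control was -0.32, opposite in sign to that of Alas2, with a limma adjusted p of 0.904. The list's summed FPKM had r = -0.24 with the haemoglobin sum over the 9 libraries.

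Of 11 tested genes that clear haem or store its iron, 4 were higher and 7 lower in arrested than in control libraries. None passed the limma threshold. The r of the list's sum with the haemoglobin sum was -0.51. Most of that sum was the ferritin genes Fth1 and Ftl1, with means of 909 and 807 FPKM over the libraries. Among the tested genes of the list, r ran from -0.47 (Blvra) to 0.34 (Slc48a1), so the sum does not stand for each gene.

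Among 17 further genes abundant in red cells but used by other cells too, 8 of 16 tested were higher and 8 lower in arrested than in control libraries. Bpgm, whose enzyme makes the bisphosphoglycerate that tunes oxygen release by haemoglobin, had 14.03, 14.71 and 14.94 FPKM in arrested libraries, against 14.6, 8.40 and 10.5 FPKM in competent and 11.7, 6.80 and 6.57 FPKM in control libraries. Arrested libraries were the higher with no overlap with control, a pattern that 3.49% of all tested genes showed. The log2 difference was 0.78 ± 0.26 (SE) with a limma adjusted p of 0.904. By annotated FPKM the r of Bpgm with the haemoglobin sum was 0.566. The most abundant genes of this list had r = 0.393 (Car2), 0.204 (Ucp2) and 0.058 (Prdx2), and the lowest r was -0.37 (Tspan33). By read density over exons Bpgm had r = 0.842 with the haemoglobin sum, the third highest of the named genes outside the 5, after Trim23 (0.8996) and Pigk (0.862). That ranking was made after the data were seen.

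Outside the 5 genes, 3 of the genes tested had an r of at least 0.9 with the haemoglobin sum by annotated FPKM, genes known only by an identifier included. Among the 11097 genes left without those, the 10 most like it were Prkcd (r = 0.938), Rragb (0.886), Slc29a2 (0.877), Adipor2 (0.864), Klre1 (0.854), Klra7 (0.853), Tubgcp5 (0.848), Homer1 (0.848), Eif1ax (0.848) and Efna5 (0.842), each over 9 libraries. Prkcd was listed at 0 in competent library 3 and in all control libraries, yet its read density over exons was 16.04 to 21.1 FPKM in arrested, 17.3 to 18.3 FPKM in competent and 20.3 to 21.4 FPKM in control libraries, with r = -0.13. Of the 10, only Efna5 kept an r above 0.65 by read density (0.841). Alas2 had an r above 0.9 by annotated FPKM and by read density.

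Summed markers of other cells that could bring blood or vessels into a library did not rank the libraries as the globins did. Endothelial genes (15 listed, 14 tested) summed to 68.1, 184 and 147 FPKM in arrested libraries, against 89.0, 126 and 120 FPKM in competent and 109.5, 116 and 133 FPKM in control libraries, and r with the haemoglobin sum was -0.05. Platelet genes summed to 57.0 to 84.8 FPKM in arrested, 48.1 to 66.4 FPKM in competent and 56.8 to 70.6 FPKM in control libraries, with r = 0.13. Of that list, Gp1bb and Clec1b were listed at 0 in every library, and only 5 of 15 genes averaged 1 FPKM or more.

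Leukocyte genes summed to 167 to 278 FPKM in arrested, 186 to 229 FPKM in competent and 182 to 347 FPKM in control libraries, with r = 0.08. The largest part of that sum was Lyz2, with a mean of 141 FPKM and r = 0.007. Among the tested leukocyte genes, r ran from -0.35 (Itgam) to 0.72 (Cd3g). The neutrophil list summed to 1766 to 3197 FPKM in arrested, 6654 to 7277 FPKM in competent and 4184 to 5162 FPKM in control libraries, with r = -0.35. Nearly all of that sum was Lcn2 and Ltf, which the uterine epithelium also makes, and Lcn2 was the 1 gene of the list that passed the limma threshold, in arrested against competent libraries. Plasma protein genes of the liver were near 0, with albumin (Alb) at no more than 0.36 FPKM.

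Uterine cell types were present in every library. The sum of 10 epithelial genes was at least 3252.5 FPKM in every library and had r = -0.24 with the haemoglobin sum. Stromal genes (10) had r = -0.003 and smooth muscle genes (8) r = -0.21. Muscle and neuronal relatives of haemoglobin stayed low, with myoglobin (Mb) and neuroglobin (Ngb) under 1.6 FPKM, while Cygb had 7.42 to 28.04 FPKM in arrested, 9.75 to 18.6 FPKM in competent and 20.1 to 22.6 FPKM in control libraries.

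Adipocyte genes stood apart in arrested library 2, the library with the most globin. They summed to 5.80, 1422 and 163 FPKM in arrested libraries, against 10.9, 186 and 70.0 FPKM in competent and 125, 59.3 and 14.6 FPKM in control libraries. Over all 9 libraries their r with the haemoglobin sum was 0.04, since arrested library 1 and competent library 1 had sums of 5.80 and 10.9 FPKM beside high globin. Without arrested library 2, the arrested minus control difference was 1.35 for Hba-a1 and 0.88 for Alas2 on the log2(FPKM + 1) scale. The part of fat or other tissue taken with the uterus in the globin levels was not tested.

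The libraries differed less in depth than in globin. Read bases over annotated transcripts came to 1077 to 1972 Mb per library, and median-ratio size factors were 0.945 to 1.06. Scaling by these factors moved the arrested minus control difference of Hba-a1 to 1.67 and that of Alas2 to 1.17.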

How the data were processed

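Total RNA from whole uterus was made into TruSeq libraries, per the labels' protocols. The submitters' processing notes name Bowtie 0.12.2, Cufflinks and the mm9 build. The deposited transcript tables hold FPKM and its interval ends as the authors' Cufflinks output, and a coverage signal per transcript, per the file headers. Read counts are not given, so the precision of a level cannot be set from counts. Of the transcripts, 97.4% had the coordinates of GENCODE vM1, which supplied gene names.

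Annotated transcripts were summed per gene (35934 genes). The 13333 genes averaging 1 FPKM or more were fitted as log2(FPKM + 1) with limma 3.58.1 (R 4.3.3), with a mean trend, 1 mean per group over all 9 libraries and Benjamini-Hochberg adjustment at 0.05. The fit was tested on simulated data. Fold changes on this scale understate those of low genes. Exact permutation tests and correlations used Python 3.11.15. The 5 genes and the gene lists were chosen with earlier results of these data known. All 5 genes are named. List genes were marked by the smallest unadjusted p under 0.05 (up to 4 per list) or the highest mean FPKM (up to 3). Only some of the marked genes are named, beside defining markers and genes listed at 0. The 10 genes most like the haemoglobin sum by r are all named. Read density over exons is FPKM times length, summed over annotated and assembled transcripts and divided by exonic length. Same-numbered libraries did not deviate together, so the numbers were not used as pairs. Alternatives covered pseudocount, filters, scaling, gene summary, model and each library left out.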

Additional observations from a re-analysis of the deposited data

Results flagged for a closer look

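An assembled Hbb-b1 transcript with no annotated name had 689.7 FPKM in competent library 2 and was matched in no other library, control libraries included. It is a signal outside the sums used for the gene. The authors' interval around it ran from 667 to 713 FPKM. Its part in the Hbb-b1 values is given with the transcripts of that gene.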

How the results depend on the processing

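None of the 5 genes passed the adjusted threshold in any comparison under any of the 24 alternatives. Of 504 recomputed differences of the 5 genes and the 2 sums, 500 kept their direction. Alas2 in arrested minus competent became -0.28 when the transcript of highest mean FPKM stood for the gene, -0.40 without competent library 3 and -0.10 without arrested library 2, with all library omissions between -0.40 and 0.51. Hbb-b1 in competent minus control became -2.03 with that transcript alone, which is listed at 0 in competent library 2. With that transcript the r of Hbb-b1 with Hbb-b2 was 0.171 (exact permutation p = 0.75). The other correlations kept an exact permutation p under 0.05 in every alternative run, with r of Alas2 and the haemoglobin sum lowest at 0.738 with that transcript. The number of the 5 genes with an unadjusted p under 0.05 in arrested minus control, 4 in the fit reported, ran from 0 to 5 with a library left out. That number was 1 with failed estimates and control library 1 left out together, and the filter on failed estimates alone was not run. The smallest limma adjusted p over the alternatives was 0.52 for arrested minus competent, 0.656 for arrested minus control and 0.668 for competent minus control.

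Counts of genes called over the whole table moved more. In these counts the setting with failed estimates left out also lacked control library 1, and the filter alone was not run. Arrested minus competent called 18 genes, and 36 with failed estimates left out, 11 with the top transcript, 10 with no mean trend, 30 with only the 2 groups, 58 by read density and 11 to 41 with a library left out. Arrested minus control called 7, and 28 with failed estimates left out, 3 with the top transcript and 7 to 25 with a library left out. Competent minus control called 6, and 2 with a pseudocount of 5, 10 with no filter, 19 with failed estimates left out, 10 with only the 2 groups, 1 by read density and 4 to 16 with a library left out. The F test called 13, and 42 with failed estimates left out, 6 with the top transcript and 13 to 36 with a library left out. The cause of these shifts was not tested. With replicate number as a block the counts were 4, 5, 1 and 5 genes in the same order, and the 5 genes again had no call. Same-numbered libraries correlated between -0.05 and 0.10 in their deviations, so the numbers are not evidence of pairing.

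The reads behind a value are unknown here. With 3 libraries a group, differences of the globins had a standard error near 0.6 on the log2(FPKM + 1) scale, set by libraries of 1 group that differ up to 5.598-fold.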
